A study of Homo sapiens with 2 samples.

Results

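The genes described here encode the enzymes that make cholesterol and fatty acids, with the regulators that set their transcription. They are 28 genes chosen by name from the 62700 gene rows of the deposited table: 7 of the mevalonate steps, 11 of the squalene and sterol steps, 5 of sterol regulation and transfer, and 5 of fatty acid synthesis. All 28 had at least 100 counts summed over both libraries, a limit that 11321 genes of the table passed.

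RNA was measured in K562, an established human line from chronic myeloid leukemia with erythroid features, in 2 libraries. Both came from wild-type K562 cells that express dCas9-KRAB, a Cas9 without nuclease activity joined to a repressor domain. The genotype field of both reads E50_dCas9-KRAB, and E50 is not explained there. The control library came from cells with the guide sgRNA_Control and the other from cells with sgRNA_SMC1A, which directs the repressor to the gene of a cohesin ring subunit. Both carried the guide vector and its blue fluorescent protein, were held in 1 µg/ml puromycin from day 2 to day 6 and were sorted for high blue fluorescence at harvest, so puromycin selection and the repressor are common to both. The comparison asks how RNA levels differ once SMC1A is depleted. Each guide had 1 library, so no test across samples was possible, no p-value is given, and each interval below is a 95% interval that covers counting error only. Intervals are exact, apart from those of ratios between genes within a library, which use the log approximation from the 4 counts. Differences are between these libraries, and lower RNA per cell and fewer cells of a kind cannot be told apart in bulk RNA.

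Cells build cholesterol from acetyl-CoA. The mevalonate steps turn it into isoprenoid units, squalene is assembled from these and closed into a sterol ring, and a series of ring modifications ends in cholesterol. Fatty acids come from the same acetyl-CoA, which ATP citrate lyase releases from citrate, and are then elongated and desaturated. Transcription of both sets is driven by the sterol regulatory element binding proteins (SREBPs). SCAP carries SREBPs out of the endoplasmic reticulum when sterols are low, proteases in the Golgi release the active factor, and INSIG proteins hold the complex back when sterols are high. SREBP-2, from SREBF2, acts mainly on sterol genes and SREBP-1c, from SREBF1, mainly on fatty acid genes.

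The control library held 18349209 estimated counts and the SMC1A library 16864207. SMC1A itself stood at 460.4 and 16.3 CPM (counts per 1e6 counts of the TMM-scaled library size), 3.56% of control. Each of the 8 K562 and erythroid markers checked passed 100 counts, and their levels differed between the libraries in both directions. The log2 ratio, SMC1A guide over control guide, was -1.68 for HBG2, -1.50 for HBG1, -1.41 for TFRC, -0.56 for GATA1 and -0.32 for KLF1, and 0.62 for HBE1 and 0.86 for ALAS2. The part of these differences in the results was not tested. Of 24 markers of T cells, B cells, monocytes, fibroblasts, hepatocytes and adipocytes, 4 passed 100 counts. The 24 summed to 42.8 CPM in the control library and 61.9 CPM in the other. The largest parts were LYZ, a monocyte marker, at 18.2 and 24.3 CPM, and CD3D, a T cell marker, at 14.5 and 18.4 CPM. Among the 24, the adipocyte markers, from a cell type with high fatty acid synthesis, summed to 0 and 1 counts, and the hepatocyte markers to 8 and 4. The fibroblast markers summed to 7.75 and 16.3 CPM and did not move together, with 64 and 233 counts of COL1A1, 70 and 42 of COL1A2, and at most 7 in a library for DCN and PDGFRB. Their part in the results was not tested either.

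Promoter sequences are shown for 6 of the members, since SREBPs act at promoters together with the factors NF-Y and Sp1. RefSeq promoters (GRCh38.p14) matched 24 of the 28 genes. ACAT2, FDFT1, SQLE and FASN had no entry. The bases are the 250 before the outermost RefSeq start, read 5′ to 3′ on the gene's strand. Capitals mark CCAAT, the NF-Y box, or its reverse complement ATTGG, and TCACNCCAC, a form of the sterol regulatory element. HMGCS1, MSMO1, SCD and ELOVL6 are members past 1.5-fold on the lower side, PMVK was past it on the higher side, and SREBF2 lay near its control level. Not printed are TM7SF2, which had the highest ratio and has an NF-Y box 74 bases before its start, and CYP51A1. CYP51A1 was past 1.5-fold on the lower side and has no NF-Y box.
HMGCS1 (chr5:43313413-43313662, minus strand): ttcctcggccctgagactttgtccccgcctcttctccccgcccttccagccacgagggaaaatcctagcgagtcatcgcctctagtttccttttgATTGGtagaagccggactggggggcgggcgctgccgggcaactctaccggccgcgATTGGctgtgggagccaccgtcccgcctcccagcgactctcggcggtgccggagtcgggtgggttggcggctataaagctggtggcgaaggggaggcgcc
MSMO1 (chr4:165327419-165327668, plus strand): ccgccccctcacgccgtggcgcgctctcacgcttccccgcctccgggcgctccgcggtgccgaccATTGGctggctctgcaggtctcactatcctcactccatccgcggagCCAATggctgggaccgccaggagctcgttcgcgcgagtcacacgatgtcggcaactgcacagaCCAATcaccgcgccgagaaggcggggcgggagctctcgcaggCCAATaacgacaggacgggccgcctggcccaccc
SCD (chr10:100346983-100347232, plus strand): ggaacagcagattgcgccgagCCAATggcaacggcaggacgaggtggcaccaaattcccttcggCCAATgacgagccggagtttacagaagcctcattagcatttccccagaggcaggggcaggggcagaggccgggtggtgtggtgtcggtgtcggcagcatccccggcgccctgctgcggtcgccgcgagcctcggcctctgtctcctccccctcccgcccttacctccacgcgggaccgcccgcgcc
ELOVL6 (chr4:110198616-110198865, minus strand): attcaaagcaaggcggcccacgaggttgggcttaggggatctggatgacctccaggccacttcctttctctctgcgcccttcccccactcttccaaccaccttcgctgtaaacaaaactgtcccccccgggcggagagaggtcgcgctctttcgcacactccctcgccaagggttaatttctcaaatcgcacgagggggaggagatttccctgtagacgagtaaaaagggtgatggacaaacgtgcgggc
PMVK (chr1:154936720-154936969, minus strand): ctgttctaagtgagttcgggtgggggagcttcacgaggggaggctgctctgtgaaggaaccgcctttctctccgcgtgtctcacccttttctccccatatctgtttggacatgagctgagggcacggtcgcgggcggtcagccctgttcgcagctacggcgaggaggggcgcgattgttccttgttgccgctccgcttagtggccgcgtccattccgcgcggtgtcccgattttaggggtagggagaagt
SREBF2 (chr22:41832855-41833104, plus strand): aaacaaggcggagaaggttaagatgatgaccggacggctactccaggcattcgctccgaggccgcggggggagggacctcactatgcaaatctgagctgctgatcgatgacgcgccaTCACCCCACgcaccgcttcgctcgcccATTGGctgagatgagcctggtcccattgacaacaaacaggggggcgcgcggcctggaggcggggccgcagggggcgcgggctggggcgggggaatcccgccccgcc
The MSMO1 stretch holds 4 NF-Y boxes, those of HMGCS1 and SCD hold 2 each, that of SREBF2 holds 1, and those of ELOVL6 and PMVK hold none. Only the SREBF2 stretch, of these 6, holds TCACNCCAC, 133 bases before the start.

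Over the window from 250 bases before to 50 after any listed start, and counting both strands, CCAAT was found in 19 of the 24 matched members (79.2%) and in 39.7% of the 27305 genes of the promoter table, which includes noncoding genes. GGGCGG, the Sp1 box, was found in 23 members (95.8%) and 48.3% of all genes. CACGTG, an E-box, was found in 4 (16.7%) and 8.77%. TCACNCCAC was found in 1 member, SREBF2, and in 1.39% of all genes. The shorter CACNCCAC, which overlaps it and was chosen after seeing the data, was found in 6 members, IDI1, SC5D, INSIG1, SREBF2, ACACA and SCD, and in 7.05% of all genes. A match is a description of letters and not a bound site. The 19 members with CCAAT had a median log2 ratio of -0.39 and the 5 without it -0.46. For CACNCCAC the medians were -0.21 in the 6 with it and -0.41 in the 18 without, and for CACGTG -0.20 in the 4 with it and -0.39 in the 20 without. These splits hold few genes and were not tested.

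Most of the 28 genes were lower with the SMC1A guide. The log2 ratio of CPM, SMC1A guide over control guide, was below 0 for 21 members, against 54.3% of all 11321 genes tested. The whole counting interval lay below 0 for these 21 genes, against 38.7% of all genes, above 0 for 2 and across 0 for 5. A size of 1.5-fold was passed downward by 7 members (9.06% of all genes) and upward by 2 (12.2%). A size of 2-fold was passed downward by 1 (2.32%) and upward by 0 (5.11%). The median log2 ratio was -0.39, beside -0.05 for all tested genes. Together the 28 genes took 0.497% of the control library (0.494 to 0.500) and 0.376% of the SMC1A library (0.373 to 0.379), which are shares of the library totals and so carry the scaling by those totals.

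**Figure D1:**
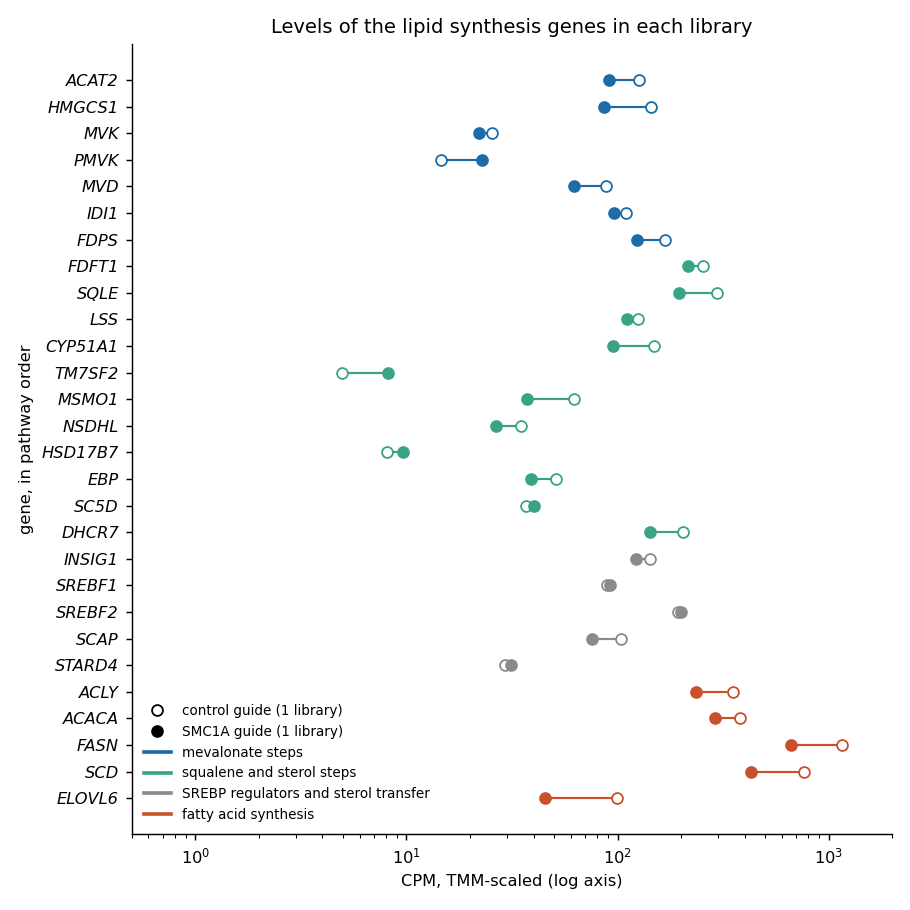
Level of each of the 28 genes in CPM (log axis), in pathway order from top to bottom, with an open point for the control library and a filled point for the SMC1A library, 1 library each. The filled point lies to the left of the open one for 21 genes, and the widest gap is that of ELOVL6 (98.9 and 45.2 CPM).

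Fatty acid synthesis had the lowest ratios of the 4 groups. All 5 genes were lower, with log2 ratios from -1.13 to -0.39 and a median of -0.80, and 3 of them were past 1.5-fold. ELOVL6 (ENSG00000170522.10, chromosome 4, 110045846 to 110199199, GRCh38), which adds the carbon pair that turns palmitate into stearate, had 1736 counts in the control library and 798 in the SMC1A library. These are 98.9 and 45.2 CPM, or 45.8% of control, and the log2 ratio of -1.13 (-1.25 to -1.01) was the lowest of the 28. Of all genes tested, 195 (1.72%) had a lower ratio.

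SCD (ENSG00000099194.6, chromosome 10, 100347124 to 100364834), the desaturase that makes oleate, stood at 759.0 and 426.1 CPM (13316 and 7516 counts), a log2 ratio of -0.83 (-0.87 to -0.79). FASN (ENSG00000169710.9, chromosome 17, 82078333 to 82098332), the synthase that builds palmitate, stood at 1155 and 661.5 CPM (20265 and 11667 counts), a log2 ratio of -0.80 (-0.84 to -0.77). These genes had the largest counts of the 28 and so the narrowest intervals. Their balance was alike in both libraries, with 0.657 SCD counts per FASN count in the control library and 0.644 in the other, a change to 0.980 of control (0.945 to 1.02). ELOVL6 counts per SCD count were 0.130 and 0.106, a change to 0.814 (0.745 to 0.890), so the ratio of ELOVL6 lay below that of SCD beyond counting error.

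The enzymes at the entry of the pathway had smaller differences. ACLY, which releases acetyl-CoA from citrate, stood at 350.0 and 234.8 CPM, a log2 ratio of -0.58 (-0.63 to -0.52), and fell just short of 1.5-fold. ACACA, the carboxylase that makes malonyl-CoA, stood at 377.8 and 289.2 CPM, a log2 ratio of -0.39 (-0.44 to -0.33). Its sister gene ACACB had 15 counts in each library. The 5 genes together took 0.262% of the control library and 0.173% of the SMC1A library.

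**Figure D2:**
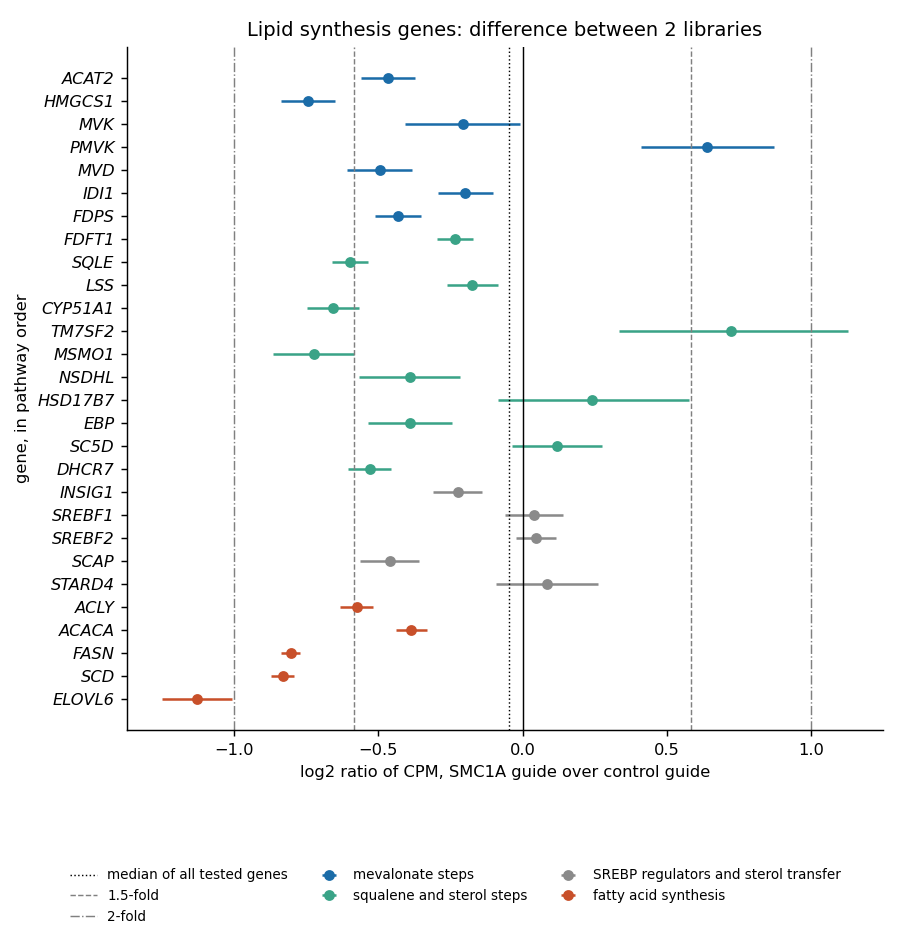
Log2 ratio of CPM, SMC1A guide over control guide, for each gene in pathway order, with bars for the exact 95% counting interval. The dotted line is the median of all tested genes (-0.05), dashed lines are 1.5-fold and dash-dotted lines 2-fold. The 5 fatty acid genes at the foot all lie left of 0, and PMVK and TM7SF2 lie past 1.5-fold on the right.

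In the mevalonate steps, 6 of 7 genes were lower and 1 higher, with a median log2 ratio of -0.43. ACAT2, which here denotes the cytosolic thiolase that joins acetyl-CoA units, stood at 125.9 and 91.1 CPM (-0.47). Its span overlaps that of TCP1, a chaperonin gene on the opposite strand with 18099 and 11681 counts (-0.64). The kit preserved strand, but whether the counting used it is not given in the sources used here, so the split of reads between the pair is uncertain. HMGCS1 (ENSG00000112972.15, chromosome 5, 43289395 to 43313512), the synthase of the next step, stood at 144.4 and 86.2 CPM (2534 and 1521 counts), a log2 ratio of -0.74 (-0.84 to -0.65). It had the lowest ratio of the 18 cholesterol synthesis genes. MVK, mevalonate kinase, stood at 25.5 and 22.1 CPM (-0.21, -0.41 to -0.01), an interval that ended close to 0. MMAB, a cobalamin enzyme gene whose span overlaps MVK on the opposite strand, was at -0.15.

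The next enzyme differed in direction. PMVK (ENSG00000163344.6, chromosome 1, 154924734 to 154936991), phosphomevalonate kinase, stood at 14.6 and 22.7 CPM (256 and 401 counts), a log2 ratio of 0.64 (0.41 to 0.87). MVD, the decarboxylase that follows it, stood at 88.0 and 62.4 CPM (-0.50, -0.61 to -0.38). PMVK counts per MVD count were 0.166 in the control library and 0.364 in the other, a 2.20-fold difference (1.84 to 2.62) that needs no scaling. IDI1, the isomerase, stood at 109.9 and 95.8 CPM (-0.20), and FDPS, which makes farnesyl diphosphate, at 167.1 and 123.8 CPM (-0.43).

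Of the 11 squalene and sterol genes 8 were lower and 3 higher, with a median of -0.39. FDFT1, squalene synthase, stood at 252.3 and 214.3 CPM (-0.24). SQLE, the oxygenase that follows and a rate-limiting step, stood at 294.8 and 194.6 CPM (5172 and 3432 counts), a log2 ratio of -0.60 (-0.66 to -0.54). LSS, which closes the ring to lanosterol, stood at 124.5 and 110.3 CPM (-0.17). The ratio of the middle step was thus below those of the steps on either side.

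The enzymes that strip methyl groups from the ring ranged from -0.72 to 0.24. CYP51A1, the lanosterol demethylase, stood at 149.1 and 94.6 CPM (2616 and 1668 counts), a log2 ratio of -0.66 (-0.75 to -0.57). MSMO1 (chromosome 4, 165327623 to 165343160), the methylsterol oxidase, stood at 61.8 and 37.4 CPM (1085 and 660 counts), a log2 ratio of -0.72 (-0.87 to -0.58). NSDHL, the decarboxylating dehydrogenase that works with it, stood at 34.8 and 26.5 CPM (-0.39). HSD17B7, the ketoreductase of the same complex, was at 8.09 and 9.58 CPM on 142 and 169 counts, and its log2 ratio of 0.24 had an interval across 0 (-0.09 to 0.58).

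TM7SF2 (chromosome 11, 65111845 to 65116384), a sterol reductase, stood at 4.96 and 8.22 CPM on 87 and 145 counts, a log2 ratio of 0.72 (0.34 to 1.13). It had the highest ratio and the fewest counts of the 28, and its span overlaps that of VPS51, on the same strand, which was at -0.35. LBR, a nuclear envelope protein that also carries sterol reductase activity and is not among the 28, had 6637 and 5629 counts (-0.25). Among the last steps, EBP, the isomerase, stood at 50.9 and 38.8 CPM (-0.39) and DHCR7, the final reductase of its branch, at 204.9 and 141.9 CPM (-0.53, -0.60 to -0.46). SC5D, the desaturase between them, stood at 36.9 and 40.0 CPM, and its log2 ratio of 0.12 had an interval across 0 (-0.04 to 0.27). SC5D counts per MSMO1 count were 0.596 and 1.07, a 1.79-fold difference (1.55 to 2.07). The span of DHCR7 overlaps that of an antisense gene with 169 and 98 counts (-0.79), so the split of reads is uncertain there too.

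The genes of the SREBPs lay near their control levels. SREBF1 stood at 89.3 and 91.7 CPM (1566 and 1617 counts), a log2 ratio of 0.04 (-0.06 to 0.14). Its span overlaps that of RAI1, on the opposite strand, with 473 and 349 counts (-0.45), so the split of reads is uncertain here as for ACAT2. SREBF2 stood at 192.9 and 199.1 CPM (3384 and 3511 counts), a log2 ratio of 0.05 (-0.02 to 0.11). The intervals of SREBF1 and SREBF2 hold 0. For counting error under this scaling alone, they leave room for differences of up to 0.14 and 0.11 on the log2 scale. With the running median over expression level subtracted, SREBF1 was at 0.14 and SREBF2 at 0.23. After recentring on the former median of all tested genes, they were at 0.097 and 0.19. SREBF1 counts per SREBF2 count were 0.463 and 0.461. Counts of the 18 cholesterol genes per SREBF2 count were 9.84 and 7.14, a change to 0.725 of control (0.690 to 0.762), and those of the 5 fatty acid genes per SREBF1 count were 30.7 and 18.1, a change to 0.589 (0.548 to 0.632). The table gives 1 value per gene, so the 2 main SREBF1 transcripts, SREBP-1a and SREBP-1c, cannot be told apart. Scaling by library totals, which raised the median of all genes by 0.13, put SREBF1 and SREBF2 at 0.17 each. It left 5 members past 1.5-fold on the lower side, with SQLE at -0.47 and CYP51A1 at -0.53. The share of all tested genes past 1.5-fold under that scaling is not given here. Removal of the trend with GC content and transcript length, chosen after seeing the data, put the 3 members nearest 0, SREBF1, SREBF2 and STARD4, slightly below it. This removal also moved the median of all tested genes from -0.05 to -0.12. Recentred on the former median, SREBF1 was at -0.016, SREBF2 at -0.0038 and STARD4 at 0.020.

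SCAP, the escort protein of SREBPs, was lower, at 104.0 and 75.5 CPM (1824 and 1332 counts), a log2 ratio of -0.46 (-0.56 to -0.36). INSIG1, which retains SCAP and is itself an SREBP target, stood at 142.1 and 121.6 CPM (-0.23, -0.31 to -0.14). INSIG1 counts per SCAP count were 1.37 and 1.61, a 1.18-fold difference (1.07 to 1.29). STARD4, a sterol transfer protein, stood at 29.4 and 31.1 CPM, and its log2 ratio of 0.08 had an interval across 0 (-0.09 to 0.26). The median of the 5 genes was 0.04, with 0 past 1.5-fold.

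The 2 pathways differed in size. Their summed counts, which the most abundant genes weigh most, had log2 ratios of -0.73 (-0.75 to -0.71) for fatty acid synthesis and -0.42 (-0.44 to -0.39) for cholesterol synthesis. Within a library there were 1.44 fatty acid synthesis counts per cholesterol synthesis count for the control guide and 1.17 for the other, a change to 0.808 of control (0.790 to 0.826). FASN and SCD make up most of the fatty acid counts. Ratios within a library do not remove the trend of ratio with expression level. With the running median over expression level subtracted, the median log2 ratio was -0.50 for fatty acid synthesis and -0.28 for cholesterol synthesis.

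Levels of different genes were compared per kilobase of merged coding-transcript exons (GENCODE 29). SCD at 141.5, FASN at 134.9, FDPS at 101.4 and SQLE at 99.3 CPM per kilobase were the most abundant with the control guide. With the SMC1A guide they were at 79.5, 77.2, 75.2 and 65.5, so the lead of SCD and FASN over FDPS was smaller. SREBF2 was at 35.9 and 37.1 and SREBF1 at 19.9 and 20.4. The least abundant were TM7SF2 at 2.88, STARD4 at 5.30 and HSD17B7 at 5.77 with the control guide. The transcripts in use are not known, so these lengths are approximate.

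Abundant genes tended to lower ratios across the whole table, and the synthesis genes are abundant. In the highest of 5 equal classes of mean expression, which held 15 of the 28, the median log2 ratio of all genes was -0.19 and that of the members -0.47. In the next class, with 5 members, these were -0.10 and -0.50, and in the middle class, with 4, -0.04 and -0.15. In the lower classes the median of the members lay above that of all genes. It was 0.22 against 0.017 in the second lowest and 0.48 against 0.19 in the lowest, with 2 members each. The 2 in the second lowest differed in sign, PMVK at 0.64 and MVK at -0.21. TM7SF2 and HSD17B7 are the members of the lowest class, in which 29% of all genes were at least 1.5-fold higher. Among the 6395 genes with at least 1000 counts, 63% were below 0, 8.63% passed 1.5-fold on the lower side and 5.94% on the higher side, with a median of -0.12. Across the 28 genes the ratio and the log2 mean level had Pearson's r of -0.65 and Spearman's rho of -0.53, which describe genes of the same pair of libraries. Across all tested genes the values were -0.23 and -0.25. With the running median over expression level subtracted, 21 members were still below 0, while those at least 1.5-fold lower went from 7 to 3. The 3 were ELOVL6 (-1.02), MSMO1 (-0.62) and HMGCS1 (-0.61), with SCD at -0.54, CYP51A1 at -0.51, FASN at -0.50 and SQLE at -0.40. PMVK was then at 0.60, past 1.5-fold, and TM7SF2 at 0.55, short of it. Under this setting the median of all tested genes was 0. The shares of all genes below 0 or past 1.5-fold are not given for it, so these counts have no share beside them.

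**Figure D3:**
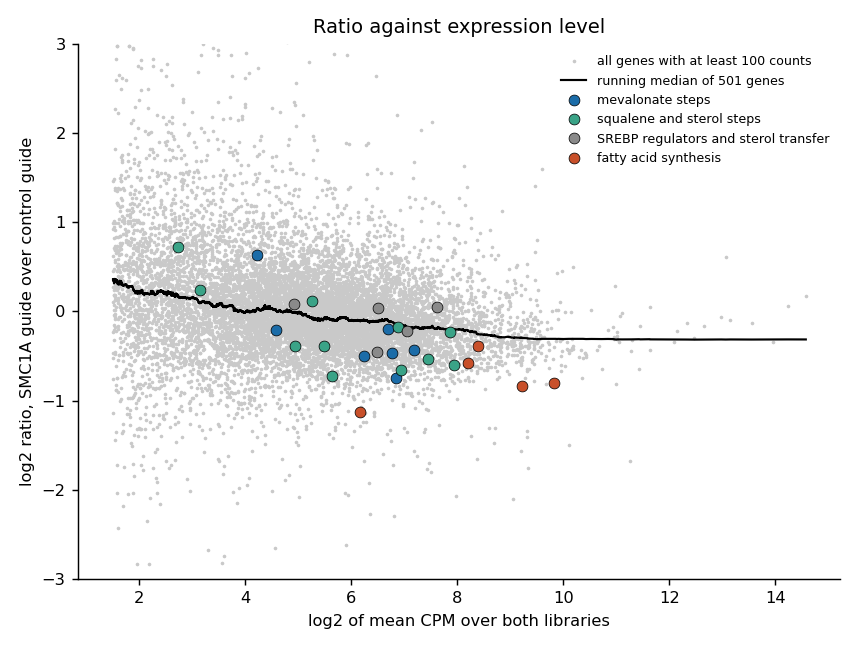
Log2 ratio (SMC1A guide over control guide) against log2 of the mean CPM over both libraries, for all genes with at least 100 counts (grey) and the 28 genes in colour by role. The black line is the running median of all tested genes, the ratio axis ends at 3 in each direction, and 54 genes lie beyond it. ELOVL6, at -1.13, lies farthest below the line, and both SREBF genes lie above it.

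Genes around the pathway were summarised from lists that use the same limit of 100 counts. Their counts past 1.5-fold stand beside 9.06% of all tested genes lower and 12.2% higher. With 7 to 17 measured genes a list, these counts are a description and nothing particular to a list is read from them. In the isoprenoid branch, which leads from farnesyl diphosphate to lipid anchors, dolichol and coenzyme Q, 1 of 15 genes was at least 1.5-fold lower and 0 higher (median -0.25). PDSS1, which builds the coenzyme Q tail, was at -0.86 and NUS1, of dolichol synthesis, at -0.45. PGGT1B, a geranylgeranyl transferase subunit, was at 0.12 and GGPS1, which makes the geranylgeranyl donor, at 0.24.

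Genes that process SREBPs or degrade proteins of this pathway had a median of 0.04 over 13, with 1 at least 1.5-fold lower and 2 higher. MBTPS1, the protease that makes the first cut in SREBPs, stood at 92.8 and 140.9 CPM (0.60, 0.51 to 0.69). RNF145, a ubiquitin ligase of the endoplasmic reticulum, stood at 60.9 and 97.2 CPM (0.67), and the related ligase RNF139 was at -0.32. MBTPS1 and SCAP, which act in the same activation route, thus had ratios of opposite sign.

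Among 14 measured genes that supply acetyl-CoA and NADPH, 2 were at least 1.5-fold lower and 1 higher (median -0.24). DLAT and PDHA1, subunits of pyruvate dehydrogenase, were at -0.70 and -0.61. ME1, the cytosolic malic enzyme, which yields NADPH, was 2.13-fold higher, at 30.2 and 64.2 CPM (529 and 1133 counts), a log2 ratio of 1.09 (0.94 to 1.24). ACSS2, which makes acetyl-CoA from acetate, was at 0.25. ME1 therefore stood apart from ACLY and FASN in sign.

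Of 17 elongation and desaturation genes 10 were measured, with a median of -0.14 and 3 past 2-fold, all lower and all desaturases. FADS1 stood at 268.9 and 82.8 CPM (4718 and 1461 counts), a log2 ratio of -1.70 (-1.78 to -1.61), and FADS3 and FADS2, of the same gene cluster, at -1.25 and -1.16. The log2 ratio of FADS1 was thus below that of ELOVL6. HSD17B12, a reductase of the elongation cycle, was at 0.42. HACD2, a dehydratase of the cycle, was at 0.39 on 152 and 200 counts, while the related HACD3, with 2056 and 1785 counts, was at -0.21 (-0.30 to -0.12).

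All 7 measured genes of mitochondrial fatty acid synthesis, a separate pathway that makes the lipoate precursor, were below 0 (median -0.43), beside 54.3% of all tested genes. MCAT, its malonyl transferase, stood at 24.9 and 11.7 CPM (437 and 206 counts), a log2 ratio of -1.09, and OXSM, its condensing enzyme, was at -0.52. MECR, the reductase, was at -0.35 and CBR4, a further reductase, at -0.03, with an interval across 0 (-0.17 to 0.10). Mitochondrial fatty acid oxidation, which breaks fatty acids down, had a median of -0.0021 over 17 genes, with 1 at least 1.5-fold lower and 0 higher. PPARA, a transcription factor of oxidation genes, was at -0.81 and CPT1A, which forms acylcarnitine, at -0.57, while SLC25A20, the carnitine carrier, was at 0.32 and CPT2 at 0.36.

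In sterol handling and the liver X receptor (LXR) group, 16 of 22 genes were measured, with a median of -0.19, and 1 was at least 1.5-fold lower and 3 higher. NPC2, which carries cholesterol out of lysosomes, stood at 13.7 and 33.9 CPM (241 and 598 counts), a log2 ratio of 1.30 (1.09 to 1.52). NR1H3, which encodes LXR alpha, was at 0.69. EBPL, a relative of EBP, was at -0.91 and MYLIP, a ubiquitin ligase for lipoprotein receptors, at -0.37. Of 16 measured genes of fatty acid activation and glycerolipid assembly (median -0.09), 2 were at least 1.5-fold lower and 2 higher. GPAT3, an acyltransferase of the first step, had 409 and 92 counts (-2.15) and AGPAT5, of the next step, was at -0.76, while the phosphatase genes LPIN1 and LPIN3 were at 0.70 and 1.07.

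**Figure D4:**
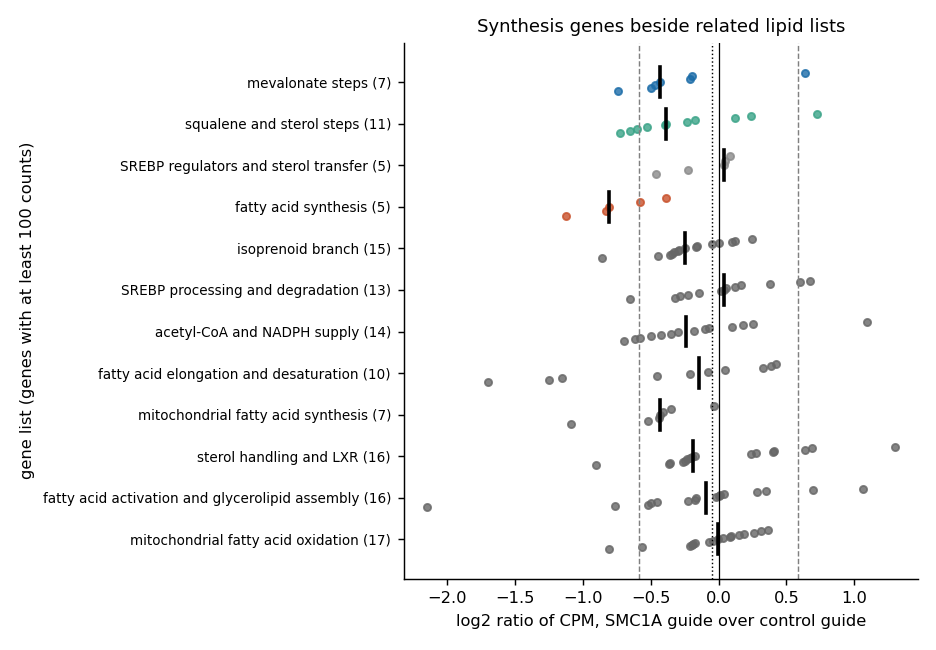
Log2 ratio (SMC1A guide over control guide) of every gene with at least 100 counts, by list, with the number of genes in brackets and a black bar at the list median. The dotted line is the median of all tested genes and dashed lines are 1.5-fold. The fatty acid synthesis list (median -0.80) lies lowest, and fatty acid oxidation (median -0.0021) near 0.

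The nearest measured gene on each side of the 28 was taken from GENCODE 29. The 56 neighbours had a median log2 ratio of -0.13, with 8 at least 1.5-fold lower and 7 higher, beside 9.06% and 12.2% of all tested genes. Past 2-fold were 0 lower and 5 higher, beside 2.32% and 5.11%. The 5 were PBXIP1, CTSB, TOM1L2, EGF and DDX60L. PBXIP1, which encodes an interaction partner of PBX factors, lies 7.08 kb from PMVK and had 156 and 320 counts (1.02), the same sign as PMVK. CTSB, a lysosomal protease gene, lies 3.22 kb from FDFT1 and had 2170 and 4958 counts (1.18), against -0.24 for FDFT1. TOM1L2 lies 6.51 kb from SREBF1 and was at 1.14. EGF, a growth factor gene, lies 33.6 kb from ELOVL6 and had 25 and 87 counts (1.75), the opposite sign to ELOVL6. DDX60L is the nearest measured gene above MSMO1 but lies 3014 kb away.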

How the data were processed

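Poly(A) RNA was sequenced from both ends with a directional kit, per the labels' protocols. The values deposited by the authors are estimated counts for each gene, as whole numbers, unscaled. The submitters' processing notes name STAR (2.7.10a), DESeq2 (1.42.1), Salmon (1.10.1) and the builds hg38 and GRCh38. The annotation, like the counting's use of strand, is not given in the sources used here.

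Libraries were scaled by TMM in edgeR 4.0.16 (R 4.3.3), and log2 ratios follow its formula, prior count 1. Exact intervals are Clopper-Pearson at 95%, and repeated reads of a molecule were not removed by identifiers. The size rules of 1.5-fold and 2-fold were applied to the 11321 genes with at least 100 counts. Pseudogene rows named after members held at most 5 counts each. Calculations in Python 3.11.15 were tested on simulated Poisson counts, which hold counting error only. In a first run, interval coverage in the genes made 1.5-fold lower fell just short of its limit. Coverage was then checked with all groups of changed genes pooled.

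The 28 members, the lists and the 1.5-fold size were chosen with earlier results of these data known. Named were all members, the 2 highest and 2 lowest measured genes of each of 8 related lists, and neighbours past 2-fold, except 1 gene of a related list, which like 1 marker is not reported here. ACACB, FADS2, HACD3, LBR, MMAB, RAI1, TCP1, VPS51 and the gene antisense to DHCR7 were chosen after values were seen. So were the pairs of genes compared within libraries, the class of at least 1000 counts and the promoters printed. Alternatives were other scalings (library totals, DESeq2 1.42.0, upper quartile, TMM that leaves out mitochondrial and globin genes), a prior count of 0.25 or 5, limits of 20, 500 or no counts, and subtraction of the trend with expression level. Subtraction of the trend with GC content and length, and recentring after either, were added after seeing the data.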

Additional observations from a re-analysis of the deposited data

How the results depend on the processing

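No paired analysis was possible because each guide had 1 library, and for the same reason no library could be left out. Under scaling by library totals, which shifted all genes alike, the median log2 ratio was -0.26 for the 28 members and for the 18 cholesterol synthesis genes, -0.30 for the mevalonate steps, 0.17 for SREBP regulators, -0.67 for fatty acid synthesis, 0.17 for SREBP processing, -0.11 for acetyl-CoA and NADPH supply and -0.014 for elongation and desaturation. ELOVL6 was then at -0.999, so 0 members passed 2-fold. With the trend in expression level subtracted, medians were -0.28 for the 28 members and for cholesterol synthesis, -0.25 for the mevalonate steps, -0.50 for fatty acid synthesis, -0.044 for acetyl-CoA and NADPH supply and 0.020 for sterol handling, and 3 members were at least 1.5-fold lower and 1 higher. Recentring these ratios on the median of all genes, a choice made after seeing them, gave -0.30 for the mevalonate steps, -0.54, -0.091 and -0.027 for the last 3 lists, and 3 members lower and 0 higher. The trend with GC content and length, subtracted, gave -0.088 for SREBP regulators, -0.90 for fatty acid synthesis and 2 members past 2-fold. The median of all tested genes was then -0.12. Recentring gave -0.016 for SREBP regulators, -0.83 for fatty acid synthesis and 1 member past 2-fold. When the whole counting interval had to pass 1.5-fold, 4 members were lower (HMGCS1, FASN, SCD and ELOVL6) and 0 higher. Shares of all tested genes under this rule and the other alternatives are not given here, so these counts have no share beside them. With at least 500 counts, 1 member was at least 1.5-fold higher (PMVK) and the elongation and desaturation median was -0.33. With no filter that median was -0.0071 and the sterol handling median -0.0028. The filters change which genes enter these medians, and scaling by library totals moved each of the 28 members by 0.128 to 0.129. The cause of the remaining shifts was not tested. Signs of the 28 members held under the scalings, prior counts and level trend tried. The motif counts did not differ with the 250 bases before the start only, except CACGTG, found in 3 members. Depth limits TM7SF2, HSD17B7 and PMVK most.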
